A study of Homo sapiens with 12 samples.

Results

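The response of LNCaP cells to androgen was read from 6 of the 12 RNA-seq libraries of the series, which carried a control hairpin. LNCaP is an established human prostate cancer line whose growth depends on androgen. All 6 libraries came from cells transduced with a lentivirus (pLKO.1-puro) encoding a scrambled hairpin, selected with puromycin and kept in medium with charcoal-stripped serum for 24 h. The sh_scramble -DHT group then received ethanol vehicle and the sh_scramble +DHT group 10 nM dihydrotestosterone (DHT), each for 24 h, with 3 libraries a group. The repeats were separate treatments of cells from separate transductions, and which repeat came from which transduction is not given in the sources used here. The other 6 libraries carried the hairpin against TMEFF2 under the same treatments. Of 34643 gene symbols listed, 15419 had enough reads to be tested, and all of them were compared between the 2 groups of sh_scramble libraries.

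DHT is the most potent natural androgen. Steroid hormones act through nuclear receptors, which bind DNA at response elements, mostly in enhancers, and raise or lower transcription of nearby genes. In the luminal cells of the prostate, androgen maintains secretion of proteins, lipids and ions into seminal fluid. Charcoal stripping removes steroids from serum, so that vehicle-treated cells are deprived of androgen.

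The 6 libraries held 19450866 to 21926323 estimated counts (median 20655093). Log2 CPM (counts scaled to a common library total) correlated at r = 0.984 to 0.986 between the 6 pairs of libraries of the same treatment and at 0.965 to 0.971 between the 9 pairs that differed in treatment, and no library stood apart. All 7 luminal markers were present, with summed levels of 4198 to 4234 CPM in vehicle libraries and 11411 to 12729 CPM with DHT. KLK3 made up most of this gain (1936 to 1969 CPM, then 7042 to 7525 CPM). The members moved in both directions, and HOXB13 went from 471 to 522 CPM down to 338 to 380 CPM. Of the 5 basal markers KRT5 and KRT17 were at 0, and of the neuroendocrine markers INSM1 was at 0. Summed levels of the 5 basal markers were 0.204 to 0.390 CPM with vehicle and 1.14 to 1.84 CPM with DHT. The 7 stromal markers summed to 21.3 to 22.4 and 12.6 to 13.5 CPM, the 5 immune markers to 5.09 to 6.04 and 3.64 to 3.93, the 3 endothelial markers to 15.5 to 25.0 and 12.9 to 14.3, and the 4 neuroendocrine markers to 1.97 to 3.00 and 3.07 to 3.74. All libraries came from cultures of the LNCaP line, so these sums describe RNA of that line and count no cells of other types. COL1A1 made up most of the stromal sum (18.8 to 19.4 CPM with vehicle) and VWF most of the endothelial sum (14.8 to 23.6 CPM with vehicle).

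DHT raised 840 genes (5.45% of those tested) and lowered 995 (6.45%), calls requiring 1.5-fold or more and an adjusted p no higher than 0.05 (edgeR quasi-likelihood test, Benjamini-Hochberg). The genes called higher had a median log2 fold change of 0.96 and those called lower of -0.97, against -0.01 over all genes tested. Genes called lower were the less abundant: their median level with vehicle was 9.91 CPM, against 21.4 CPM for genes called higher and 24.4 CPM for all genes tested. A change of at least 4-fold was called for 124 genes upward (0.804%) and 133 downward (0.863%). In the pool of RNA, the genes called higher took 5.32 to 5.55% of all counts in vehicle libraries and 11.1 to 11.4% in DHT libraries, while the genes called lower went from 5.04 to 5.61% to 2.53 to 2.71%. Of 15 reference genes often used for normalization, 1 was called: B2M, the light chain of MHC class I, rose from 214, 209 and 200 CPM to 418, 430 and 391 CPM. GAPDH, a glycolytic enzyme, measured 3026, 3149 and 3401 CPM with vehicle and 3104, 2907 and 3520 CPM with DHT (log2 fold change -0.01 ± 0.06, SE).

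The gene that added most to the RNA pool was KLK3, which encodes prostate-specific antigen, and its neighbour KLK2, which encodes another secreted serine protease, was among the 10 largest gains. The bases before their transcription starts are shown because both promoters hold a near match to the androgen response element, a palindrome of AGAACA and its reverse complement spaced by 3 free bases (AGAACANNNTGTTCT). The sequences are RefSeq's (build GRCh38.p14), chr19:50854665-50854914 for KLK3 and chr19:50873189-50873438 for KLK2, both on the plus strand, 250 bases written 5′ to 3′ and ending at the base before the start, with the nearest match in capitals.
KLK3: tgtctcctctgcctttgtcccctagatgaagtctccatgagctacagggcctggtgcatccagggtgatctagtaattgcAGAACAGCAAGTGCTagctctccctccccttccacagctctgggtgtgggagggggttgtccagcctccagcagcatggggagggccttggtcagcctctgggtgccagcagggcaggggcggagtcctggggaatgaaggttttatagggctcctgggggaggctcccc
KLK2: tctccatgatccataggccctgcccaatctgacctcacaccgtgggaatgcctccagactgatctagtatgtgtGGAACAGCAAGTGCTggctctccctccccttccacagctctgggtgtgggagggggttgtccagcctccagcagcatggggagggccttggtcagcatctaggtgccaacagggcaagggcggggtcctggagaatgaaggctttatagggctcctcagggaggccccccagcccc
The match begins at position -170 from the start of KLK3, with 2 mismatches over 12 letters, and at -176 from that of KLK2, with 3 mismatches, and 185 of 244 aligned bases (75.8%) are equal between both windows. KLK3 measured 1921, 1953 and 1900 CPM with vehicle and 7529, 7219 and 7737 CPM with DHT (3.89-fold, adjusted p = 3.9e-05). KLK2 measured 270, 219 and 266 CPM with vehicle and 1517, 1272 and 1512 CPM with DHT (5.70-fold, adjusted p = 5.6e-06). Both genes separated the groups without overlap, as did 41.8% of all genes tested. Because the coding sequences of the kallikreins resemble each other, reads assigned to KLK2 and KLK3 may be partly shared.

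The palindrome was looked for in 300-base promoter windows (250 bases before to 50 after the start) of the genes with a RefSeq window, 610 of the 840 called higher, 672 of the 995 called lower and 11010 of those tested. With 2 or fewer mismatches it was found for 7 genes called higher (1.15%), 7 called lower (1.04%) and 60 of all tested (0.545%), and in 1.44% of all 27305 windows of the reference. With 3 or fewer it was found for 46 genes called higher (7.54%), 48 called lower (7.14%) and 640 of all tested (5.81%), and in 3004 of all 27305 windows. The 6-letter motif AGAACA, on either strand and also where it is part of the palindrome, was found for 9.67% of genes called higher, 12.1% called lower and 9.35% of all tested, and in 14.9% of all windows. These shares describe the letters of these windows only, and no binding was measured.

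The genes raised most steeply came from near silence. HPGD, which inactivates prostaglandins, measured 0.498, 0.565 and 0.783 CPM with vehicle and 27.5, 29.6 and 30.5 CPM with DHT (log2 fold change 5.56 ± 0.40). CCDC141, a coiled-coil protein, went from 0.0905, 0.360 and 0.196 CPM to 12.8, 17.3 and 15.3 CPM (6.13 ± 0.34). CHRNA2, a subunit of nicotinic acetylcholine receptors, went from 0.769, 1.39 and 1.13 CPM to 72.2, 64.3 and 62.4 CPM (5.93 ± 0.25). In these genes the vehicle libraries all lay near or under 1 CPM and every DHT library lay more than 10 CPM above them. STEAP4, a metalloreductase, rose from 1.54, 1.34 and 1.13 CPM to 42.5, 62.7 and 51.2 CPM (5.28 ± 0.27). Its relatives were not called: STEAP1 measured 444, 438 and 481 CPM and then 432, 415 and 435 CPM, and STEAP2 had a log2 difference of -0.27 ± 0.05, under the fold limit. Both STEAP1 and STEAP2 were named because STEAP4 was, after their values were seen.

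The orosomucoid genes ORM1 and ORM2, which encode acute-phase plasma proteins and lie next to each other, both rose. ORM1 measured 0.226, 0.154 and 0.0979 CPM with vehicle and 8.28, 8.69 and 10.9 CPM with DHT. ORM2 had 1, 0 and 2 counts in the vehicle libraries and 124, 135 and 143 with DHT, a ratio of 131 (95% interval 44.6 to 640, counting error only). The pair are near-identical copies, so the division of reads between them is uncertain. SLC38A4, a transporter of neutral amino acids, had 4, 0 and 0 counts with vehicle and 135, 171 and 123 with DHT, a ratio of 105 (40.8 to 388). LAMA1, a laminin chain of basement membranes, went from 1.09, 1.13 and 1.37 CPM to 26.5, 23.4 and 18.1 CPM, PGC, a pepsinogen, from 0.498, 0.873 and 0.441 CPM to 8.07, 10.3 and 11.9 CPM, and ADAM7, of the ADAM membrane proteins, from 1.86, 1.80 and 2.35 CPM to 30.7, 38.1 and 29.7 CPM. TRIM49D1 (4.39 ± 0.33), TRIM49D2 (4.30 ± 0.39) and the pseudogene ZNF812P (4.02 ± 0.29) completed the steepest rises together with UGT2B28 and AKAP12, and the TRIM49D genes are copies of each other. AKAP12, a scaffold for protein kinases, was the least even: 0.317, 0.411 and 3.52 CPM with vehicle and 11.3, 24.8 and 56.8 CPM with DHT.

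**Figure D1:**
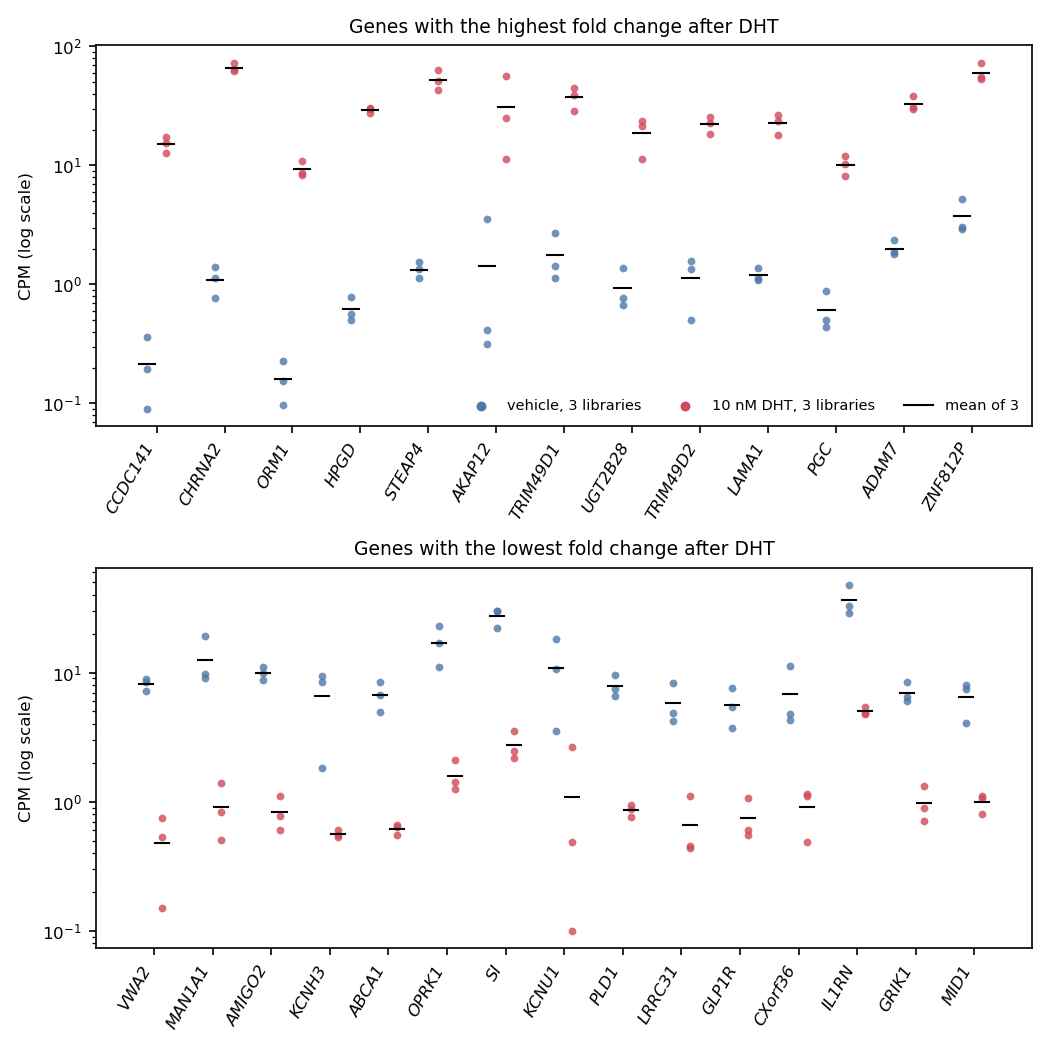
Level in CPM (log scale) of the genes with the highest (upper panel) and lowest (lower panel) log2 fold changes after DHT among called genes whose libraries do not overlap and whose higher group reaches 5 CPM, blue for the 3 vehicle libraries, red for the 3 DHT libraries and a line at each mean. ORM2 and SLC38A4 are left out of the upper panel because a vehicle library had 0 counts, and the groups of every gene drawn are apart, with AKAP12, KCNH3 and KCNU1 the most scattered.

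The genes lowered most steeply encoded enzymes, receptors, channels and adhesion proteins. VWA2, an extracellular matrix protein, fell from 7.15, 8.94 and 8.42 CPM to 0.151, 0.537 and 0.750 CPM (16.8-fold, adjusted p = 2.0e-06). MAN1A1, a mannosidase that trims N-glycans in the Golgi, fell from 9.01, 9.71 and 19.0 CPM to 0.505, 0.830 and 1.4 CPM (13.7-fold), and AMIGO2, a neuronal adhesion protein, from 11.1, 9.97 and 8.81 CPM to 0.606, 0.781 and 1.10 CPM (11.95-fold). SI, the disaccharidase sucrase-isomaltase of the intestinal brush border, measured 30.05, 29.95 and 22.3 CPM and then 2.17, 2.49 and 3.55 CPM. All 3 DHT libraries lay below all 3 vehicle libraries in each of these genes, which the rule that named them required. IL1RN, the antagonist of the interleukin-1 receptor, fell from 47.5, 33.0 and 28.9 CPM to 4.84, 5.42 and 4.75 CPM (7.29-fold). The receptors OPRK1, for opioids, GLP1R, for the incretin GLP-1, and GRIK1, for glutamate, fell, with log2 fold changes of -3.41, -2.89 and -2.83. Log2 fold changes were -3.18 for PLD1, a phospholipase, -3.12 for LRRC31, -2.88 for CXorf36 and -2.70 for MID1, a ubiquitin ligase on microtubules. The potassium channel genes KCNH3 (9.37, 8.48 and 1.81 CPM, then 0.555, 0.537 and 0.60 CPM) and KCNU1 (10.7, 18.2 and 3.52 CPM, then 2.67, 0.488 and 0.10 CPM) were uneven, and for both the pair of columns deposited for a library differed by 4-fold or more. KCNH3 was not called by limma-voom (adjusted p = 0.061).

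By mass of RNA, the largest gains after KLK3 were in lipid synthesis, protein folding and secretion. FASN, fatty acid synthase, rose from 877, 1094 and 1040 CPM to 2391, 2399 and 2805 CPM, and HSP90B1, the ER-resident HSP90, from 1726, 1325 and 1557 CPM to 3483, 2272 and 3142 CPM. SORD, sorbitol dehydrogenase, was among the most even: 374, 359 and 382 CPM with vehicle and 1297, 1299 and 1314 CPM with DHT (3.50-fold, adjusted p = 1.8e-08). TMPRSS2, a membrane serine protease, was the least even, at 139, 138 and 152 CPM with vehicle and 800, 826 and 1735 CPM with DHT. The DHT library of repeat 3 thus lay far above the other 2. Every DHT library lay above every vehicle library, as in 21.3% of all genes tested. SCD, which desaturates fatty acids, rose 1.97-fold, and ACSL3, which activates them, 6.01-fold.

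The largest losses by mass were led by FOLH1, which encodes prostate-specific membrane antigen. FOLH1 fell from 2624, 2559 and 2515 CPM to 1393, 1381 and 1403 CPM (1.84-fold, adjusted p = 7.3e-08). AIDA, an axin-interacting protein, fell from 1932, 1695 and 1395 CPM to 947, 724 and 687 CPM, and PEG3, an imprinted zinc finger gene, from 2233, 2024 and 1951 CPM to 1543, 1385 and 1135 CPM. The libraries of FOLH1 within a group were almost level, whereas CALD1, an actin-binding protein, ran from 1067 to 2173 CPM with vehicle and from 587 to 1298 CPM with DHT, so that its groups overlapped (log2 fold change -0.85 ± 0.28, adjusted p = 0.040). Its call was lost without the vehicle library of repeat 1 (adjusted p = 0.138) or 2 (0.135) or the DHT library of repeat 2 (0.071) or 3 (0.114), and that of PEG3, at 1.53-fold, without the vehicle library of repeat 1 or the DHT library of repeat 3, where its log2 fold change was -0.55 and -0.50, under the fold limit. FAM198B (4.16-fold lower), SELENBP1, a selenium-binding protein (2.85-fold), ATP1B1, the beta subunit of the sodium pump (3.68-fold), ADGRG6, an adhesion receptor (1.99-fold), GRB10, an adaptor that restrains insulin receptor signalling (4.17-fold), and MANEA, an endomannosidase of the Golgi (3.62-fold), followed.

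Of 35 genes known to be induced by androgen in prostate cells, 31 were called higher and none lower, with a median log2 fold change of 2.03. The list was written with earlier results of these data known and is a description. Counts of this list and of those below stand against 5.45% higher and 6.45% lower over all genes tested. All 9 of its genes of signalling, chaperones and transcription rose, from BMPR1B (0.96), a receptor kinase for bone morphogenetic proteins, to FKBP5 (3.38), a co-chaperone of steroid receptors, which measured 55.0, 64.3 and 71.1 CPM and then 585, 744 and 653 CPM. GNMT, which methylates glycine, rose from 4.89, 4.68 and 4.31 CPM to 41.0, 46.3 and 44.6 CPM. NDRG1, a stress-responsive gene, measured 72.0, 78.2 and 150 CPM with vehicle and 336, 300 and 340 CPM with DHT, and the vehicle library of repeat 3 lay highest among its group. KLK15, the fifth protease of the list, was not called (means of 3.48 and 4.41 CPM). TMEFF2, the target of the hairpin in the other line, measured 77.8, 73.8 and 103 CPM with vehicle and 173, 117 and 169 CPM with DHT (log2 fold change 0.85 ± 0.25, adjusted p = 0.023). Its adjusted p rose to between 0.067 and 0.080 when the vehicle library of repeat 1 or 2, or the DHT library of repeat 1 or 3, was left out.

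Of 17 genes known to be repressed by androgen, 11 were called lower and 3 higher (median -1.90). CAMK2N1, an inhibitor of calmodulin-dependent kinase II, fell from 237, 282 and 251 CPM to 53.5, 53.7 and 50.3 CPM, and DDC, which makes dopamine and serotonin from their precursors, from 176, 247 and 203 CPM to 35.5, 38.6 and 33.9 CPM. BCHE, butyrylcholinesterase, fell 3.73-fold and ACKR3, a chemokine scavenger, had a log2 fold change of -2.21. LIFR, the receptor of leukemia inhibitory factor, went against its list, from 34.3, 40.2 and 32.6 CPM to 96.6, 111 and 106 CPM. So did UGT2B28, with the highest log2 fold change of the list (4.31), described below.

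The UGT2B enzymes, which conjugate androgens with glucuronic acid and lie together on chromosome 4, split by direction. UGT2B17 (chr4:68537173-68576413) fell from 130, 91.0 and 105 CPM to 24.1, 14.9 and 22.4 CPM, and UGT2B15 (chr4:68646597-68670652) from 103, 66.2 and 84.0 CPM to 20.1, 17.1 and 17.6 CPM. UGT2B28 (chr4:69280475-69295050) rose from 0.769, 0.668 and 1.37 CPM to 11.4, 23.5 and 21.3 CPM, and UGT2B11 (chr4:69199951-69214748) from 9.23, 6.88 and 10.8 CPM to 30.3, 70.0 and 62.5 CPM. Both directions passed the test, with log2 fold changes of -2.41 ± 0.37, -2.21 ± 0.44, 4.31 ± 0.34 and 2.59 ± 0.38 in that order, while UGT2B10 (means of 2.08 and 1.79 CPM) was not called. These genes are close paralogs, and reads that match several of them were divided by the authors' quantification. In the wider list of 20 tested steroid-metabolizing genes, 5 rose and 3 fell (median -0.05), the others including HSD17B2, HSD17B4 and STS upward (1.05, 0.68 and 0.77) and HSD17B14 downward (-0.75). The 5-alpha reductase genes SRD5A1 and SRD5A3 had log2 differences of -0.08 ± 0.07 and -0.03 ± 0.09. Of 37 nuclear receptors and their partners 2 rose (5.41%) and 4 fell (10.8%), against 5.45% and 6.45% of all genes tested (median -0.12). RARB, a retinoic acid receptor, rose (1.20 ± 0.24) and RARA, another, fell (-0.61 ± 0.10), and PGR, the progesterone receptor, fell from 2.40, 1.95 and 1.86 CPM to 0.252, 0.0976 and 0.60 CPM.

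**Figure D2:**
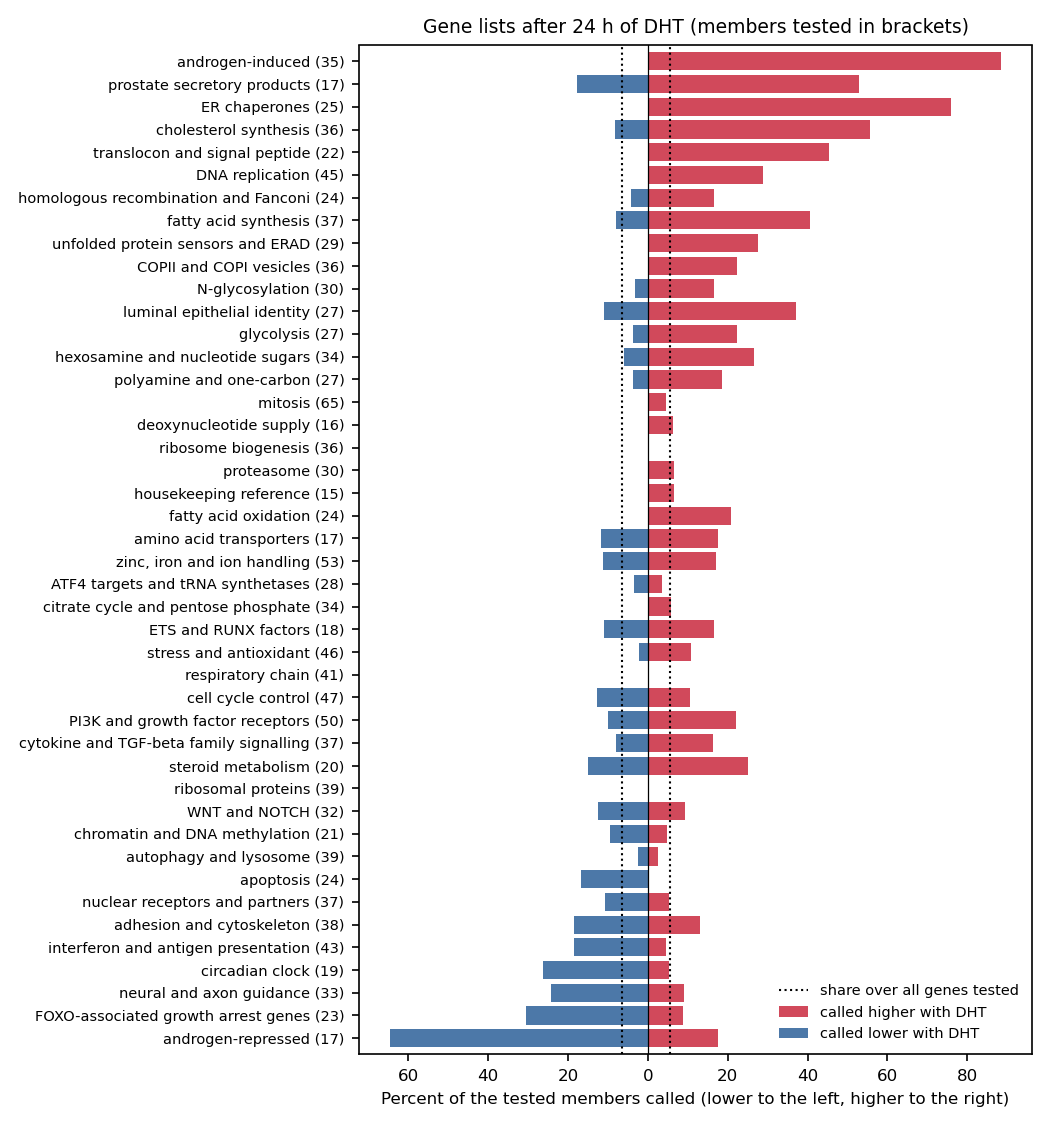
Percent of the tested members of each gene list called higher (red, to the right) or lower (blue, to the left) after DHT, for lists with at least 15 members tested, ordered by median log2 fold change; dotted lines mark the shares over all genes tested, 5.45% and 6.45%. The androgen-induced list (88.6% higher), the ER chaperones (76.0%) and the cholesterol list (55.6%) reach furthest right, and the androgen-repressed list (64.7% lower) furthest left.

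Lists of the early secretory pathway held many genes called higher and 1 called lower. New secretory proteins enter the ER through the translocon, lose their signal peptide, are glycosylated and folded by chaperones, and leave in COPII vesicles. Of 22 translocon and signal peptide genes 10 rose and none fell (median 0.52), and 19 were higher by adjusted p alone, against 14.4% of all genes tested. SSR3, of the translocon-associated complex, rose from 174, 154 and 158 CPM to 460, 403 and 379 CPM, and SEC11C, a signal peptidase subunit, from 110, 96.9 and 98.8 CPM to 281, 253 and 239 CPM. The channel subunits differed in size of change, with log2 fold changes of 1.05 for SEC61G, 0.89 for SEC61B and 0.56 for SEC61A1, the last under the fold limit.

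Of 25 ER chaperones and oxidoreductases 19 rose and none fell (median 0.75). PDIA5, a disulfide isomerase, rose from 30.2, 27.0 and 30.5 CPM to 90.2, 74.9 and 79.5 CPM (2.79-fold, adjusted p = 2.0e-06), and DNAJC10, an ER reductase, from 129, 129 and 141 CPM to 347, 305 and 279 CPM. HSPA5, the ER HSP70 known as BiP, rose from 969, 770 and 847 CPM to 1730, 1077 and 1452 CPM (1.65-fold, adjusted p = 0.0088), and the DHT library of repeat 2 lay nearest to the vehicle libraries. CALR and CANX, the lectin chaperones, measured 0.43 ± 0.09 and 0.50 ± 0.06 on the log2 scale and missed the fold limit, and the oxidase ERO1A rose (0.81) while ERO1B measured -0.02 ± 0.18.

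The stress sensors of the ER and their best known effectors gave fewer calls. Of 29 sensors and degradation (ERAD) genes 8 rose and none fell (median 0.42). CREB3L4, a membrane-bound transcription factor, rose from 80.5, 79.9 and 82.4 CPM to 199, 188 and 174 CPM, and UBE2J1, an ubiquitin-conjugating enzyme of ERAD, from 65.7, 72.9 and 67.9 CPM to 177, 168 and 156 CPM. ERN1, the IRE1 sensor, rose (0.70 ± 0.13), XBP1, its target, measured 0.52 ± 0.07, and EIF2AK3 and ATF6, the other sensors, measured 0.16 ± 0.17 and -0.02 ± 0.06. ATF4 and DDIT3, which act downstream of EIF2AK3, measured 0.02 ± 0.08 and -0.32 ± 0.11. Among 28 targets of ATF4 and tRNA synthetases, 1 rose (VLDLR, 0.86) and 1 fell (SESN2, -0.72), with a median of 0.09. Each was 3.57% of the list, under the shares of all genes tested. NPLOC4 and MARS, with errors of 0.76 and 0.97, are among the genes whose deposited pair of columns differed by 4-fold or more, and no direction can be read for them.

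Of 36 COPII and COPI vesicle genes 8 rose and none fell (median 0.41), and 30 were higher by adjusted p alone. SEC24D, a cargo adaptor of COPII, led them, from 36.5, 28.8 and 35.1 CPM to 119.9, 82.5 and 91.4 CPM, followed by the KDEL receptors KDELR3 (1.16) and KDELR2 (0.99) and the cargo receptor LMAN1 (0.92). Of 30 N-glycosylation genes 5 rose, among them the oligosaccharyltransferase genes OSTC (0.88), STT3A (0.72) and RPN1 (0.72), and 1 fell, the mannosidase MAN1A1 described above (median 0.39). Of 34 genes of hexosamine, nucleotide sugar and O-glycan synthesis 9 rose and 2 fell (median 0.24). UAP1, which makes UDP-N-acetylglucosamine, rose from 176, 195 and 192 CPM to 596, 600 and 556 CPM, and ST6GALNAC1, a sialyltransferase, from 3.12, 1.34 and 3.08 CPM to 36.9, 40.5 and 32.8 CPM. GALNT7 rose (1.13) and GALNT3 fell (-1.17), both starters or extenders of O-glycans. Of 30 proteasome genes 2 rose, PSMD8 (0.74) and PSMA6 (0.60), a share of 6.67%, near the 5.45% of all genes tested (median 0.15).

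**Figure D3:**
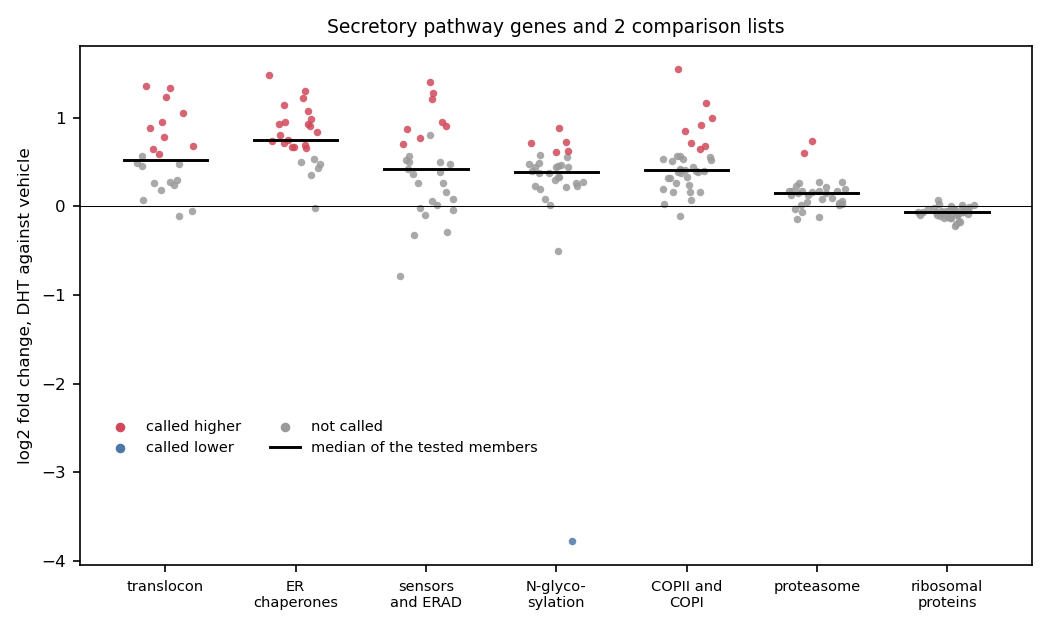
Log2 fold change of DHT against vehicle for each tested member of the secretory pathway lists, the proteasome and the ribosomal proteins, red where called higher, blue where called lower and grey where not called, with a line at each list's median. The translocon list, the ER chaperones and the combined COPII and COPI list lie mostly above 0, with medians of 0.52, 0.75 and 0.41. The ribosomal proteins lie near 0, and the lone blue point is MAN1A1.

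Of 21 enzymes of cholesterol synthesis 16 rose and none fell (median 0.98). HMGCS1, at the start of the pathway, rose from 129, 177 and 180 CPM to 472, 547 and 528 CPM, and FDFT1, which makes squalene, from 207, 231 and 253 CPM to 552, 548 and 682 CPM. Of 15 control and transport genes 4 rose and 3 fell. INSIG1 and INSIG2, which both retain the sterol sensor of SREBP in the ER, went apart: INSIG1 rose from 96.8, 162 and 133 CPM to 314, 374 and 350 CPM, and INSIG2 fell from 83.3, 76.8 and 78.2 CPM to 31.7, 26.2 and 39.3 CPM. Neither gene's groups overlapped, as was so for 41.8% of all genes tested. ABCA1, the transporter that loads cholesterol onto apolipoproteins, fell from 4.98, 8.43 and 6.75 CPM to 0.656, 0.635 and 0.550 CPM (10.8-fold, adjusted p = 3.2e-05), and ABCG1, which works with it, from 34.6, 28.3 and 16.1 CPM to 8.83, 7.03 and 5.70 CPM.

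Of 37 genes of fatty acid and glycerolipid synthesis 15 rose and 3 fell (median 0.43), 12 of the rises lying among the 24 genes of synthesis and elongation. The elongases stood out: ELOVL7 rose from 43.3, 39.9 and 33.9 CPM to 292, 272 and 201 CPM, ELOVL5 from 307, 298 and 298 CPM to 1100, 1101 and 1045 CPM, and ELOVL2 from 0.453, 0.925 and 0.783 CPM to 2.98, 3.42 and 4.15 CPM. The falls were ACSL5 (-1.30), which activates fatty acids as ACSL3 does, and AGPAT2 (-0.61) and DGAT2 (-0.59), which build triglycerides. Their count ran from 0 to 4 over the alternative analyses, with 0 when the DHT library of repeat 1 was left out. Of 24 fatty acid oxidation genes 5 rose and none fell (median 0.13). The rises were ECI2 (1.15), CROT (1.05), SLC25A20 (0.77), HSD17B4 (0.68) and AMACR (0.66). Several of these, among them CROT, HSD17B4 and AMACR, work in peroxisomes. The mitochondrial trifunctional subunits HADHA and HADHB measured -0.21 ± 0.06 and -0.24 ± 0.07, under the fold limit.

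**Figure D4:**
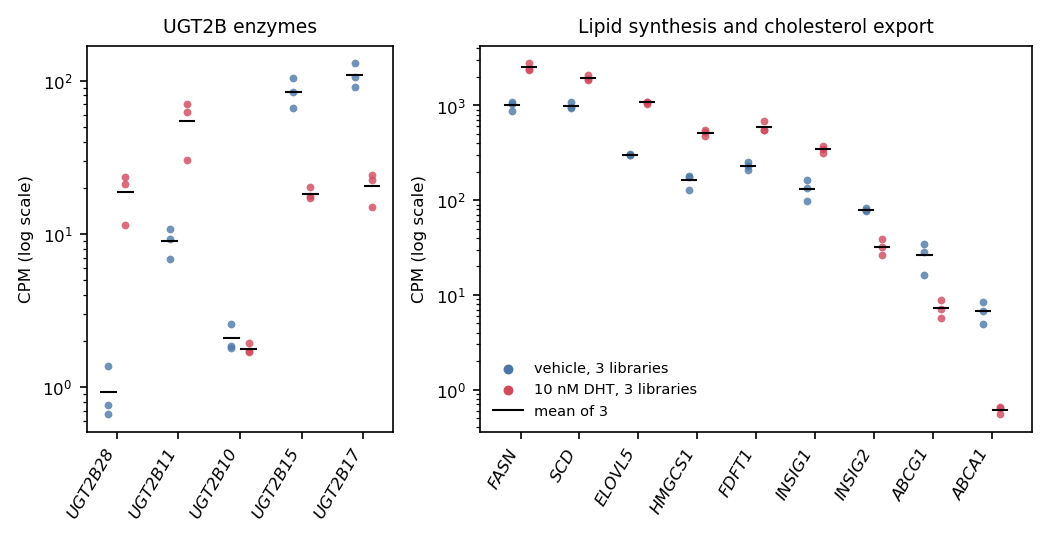
Level in CPM (log scale) in each library of 5 UGT2B enzymes (left) and of genes of lipid synthesis and cholesterol export (right), blue for vehicle, red for DHT, with a line at each mean of 3. UGT2B28 and UGT2B11 rise and UGT2B15 and UGT2B17 fall, and INSIG1 and INSIG2 move in opposite directions.

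Of 27 glycolysis genes 6 rose and 1 fell (median 0.30). HK2, a hexokinase, rose from 34.9, 43.5 and 68.6 CPM to 84.4, 91.2 and 111 CPM, with the vehicle library of repeat 3 nearest to the DHT libraries, and ENO2, the neuronal enolase, fell from 70.2, 76.4 and 106 CPM to 31.4, 36.4 and 64.8 CPM. SLC2A12, a glucose carrier, rose (0.70 ± 0.07), and the rises of SLC2A10 and SLC2A3 were at levels of 1.06 and 2.57 CPM. The list's count ran from 3 to 10 higher over the alternative analyses. Of 34 genes of the citrate cycle and pentose phosphate pathway 2 rose and none fell (median 0.07), a share near the 5.45% of all genes tested. These were MPC2, a subunit of the mitochondrial pyruvate carrier, which rose from 227, 226 and 201 CPM to 700, 694 and 639 CPM, and IDH1, the cytosolic isocitrate dehydrogenase, from 276, 295 and 273 CPM to 720, 708 and 643 CPM. Of 41 respiratory chain genes none was called by edgeR or by any alternative analysis, and 4 were higher by adjusted p alone (median 0.01).

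Polyamines are made in large amounts by prostate epithelium, and of 12 polyamine genes 4 rose and none fell (median 0.54). SMS, which makes spermine, rose from 139, 136 and 134 CPM to 462, 490 and 423 CPM, SAT1, which acetylates polyamines, from 101, 102 and 92.9 CPM to 281, 337 and 271 CPM, and ODC1, the rate-limiting enzyme, from 351, 382 and 344 CPM to 751, 889 and 659 CPM. Genes of both synthesis and breakdown were thus among the rises. Of 15 one-carbon and sarcosine genes 1 rose, GNMT (3.25), and 1 fell, PIPOX (-1.08), which oxidizes sarcosine. Each was 6.67% of the genes, near the shares of all genes tested. Of 17 amino acid transporters 3 rose, SLC38A4, SLC43A1 (1.51) and SLC1A5 (0.63), and 2 fell, SLC7A5 (-0.85) and SLC6A6 (-0.82), with a median of 0.13. SLC43A1 and SLC7A5 both carry leucine, and measured 29.9, 30.3 and 39.5 then 87.2, 90.3 and 107 CPM, and 26.9, 28.6 and 37.3 then 17.1, 15.5 and 18.9 CPM.

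Of 39 ribosomal protein genes none was called (median -0.07), and 1 was lower by adjusted p alone. Of 36 ribosome biogenesis genes none was called by edgeR or by any alternative analysis, but 12 were higher by adjusted p alone and 35 lay above 0 (median 0.20).

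Of 45 genes of DNA replication 13 were called higher and none lower, 34 were higher by adjusted p alone and all 45 had a fold change above 1 (median 0.48). CDC6, which loads the replicative helicase, rose from 41.2, 48.4 and 57.1 CPM to 92.5, 97.1 and 97.5 CPM (1.96-fold, adjusted p = 1.0e-04), followed by CLSPN, CDC45 and DBF4 (0.80, 0.77 and 0.75). Since so many members lay close to the limit of 1.5-fold, the count ran from 8 to 20 over the alternative analyses. Of 65 mitosis genes 9 were higher by adjusted p alone, against 14.4% of all genes tested (median 0.22). Called higher were 3 (4.62%, near the 5.45% of all genes tested) and none was called lower. The 3 were CDC25A (16.2, 22.2 and 20.4 CPM, then 37.7, 37.7 and 32.8 CPM), PKMYT1 (0.76) and TTK (0.72), the first a phosphatase and the others kinases. None of 37 kinetochore, spindle and cytokinesis genes was called (3 at adjusted p alone). In the sh_TMEFF2 line DHT called 35 of the 45 replication and 59 of the 65 mitosis genes higher, against 3.28% of all genes tested. The difference between the lines passed its own test for 0 and 5 of them, against 4.94% of all genes tested.

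Of 24 homologous recombination and Fanconi genes 4 rose, RMI2 (0.76), RAD54B (0.76), BLM (0.67) and UBE2T (0.61), and BARD1, the partner of BRCA1, fell from 232, 234 and 224 CPM to 128, 124 and 99.8 CPM. Of 16 genes of deoxynucleotide supply RRM2, a ribonucleotide reductase subunit, rose (0.77), a share of 6.25%, near that of all genes tested. Of 27 cyclins, cyclin-dependent kinases and E2F factors 4 rose and 1 fell, the rises including E2F1 (23.6, 34.6 and 32.2 CPM, then 45.5, 55.2 and 59.9 CPM), E2F7 (0.84) and E2F8 (0.65). Of 21 chromatin and DNA methylation genes 1 rose, ASF1B (0.59), and 2 fell, TET2 (-0.60) and KDM6B (-1.66, groups overlapping and the deposited columns differing by 4-fold or more). These shares were 4.76% and 9.52%, against 5.45% and 6.45% of all genes tested.

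**Figure D5:**
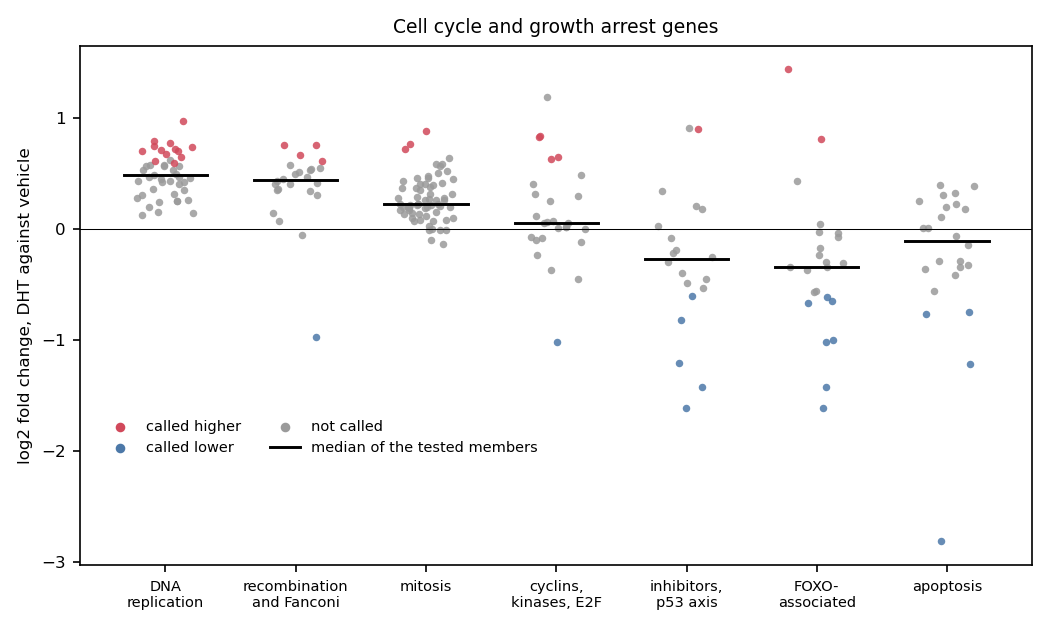
Log2 fold change of DHT against vehicle for each tested gene of 7 lists, red where called higher, blue where called lower and grey where not called, with a line at each list's median. The replication genes lie above 0 (median 0.48), the mitosis genes nearer to 0 (0.22), and the growth arrest genes mostly below 0 (-0.34).

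Of 20 cell cycle inhibitors and p53-axis genes 5 fell and 1 rose, and of 23 genes associated with FOXO factors and growth arrest 7 fell and 2 rose (median -0.34). SESN3 and SESN1, sestrins that restrain mTORC1 and stand in both lists, fell from 400, 412 and 376 CPM to 139, 123 and 126 CPM and from 424, 363 and 320 CPM to 158, 137 and 115.8 CPM. CCNG2, an unconventional cyclin of arrested cells, fell from 257, 346 and 269 CPM to 134, 155 and 141 CPM, and TP53INP1, a p53 target, from 669, 613 and 582 CPM to 287, 280 and 241 CPM. All of these separated the groups, as did 41.8% of all genes tested. PIK3IP1, an inhibitor of PI3K, fell 2.0-fold, ARRDC3 (-0.65) and TXNIP (-0.67) fell, and KLF4 (1.44) and KLF6 (0.81) rose. Of 24 apoptosis genes none rose and 4 fell (median -0.11), all of them BH3-only genes that promote death. BMF fell from 28.4, 26.8 and 28.2 CPM to 14.5, 10.5 and 10.9 CPM, and BID (-0.77) and BBC3 (-0.75) fell. HRK measured 0.588, 1.23 and 6.36 CPM and then 0.404, 0.537 and 0.20 CPM, and its columns differed by 4-fold or more.

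Growth factor signalling genes moved in both directions. Of 28 receptors and adaptors 6 rose and 2 fell, and of 22 genes of the PI3K branch 5 rose and 3 fell. IGF1R, the receptor of insulin-like growth factor 1, rose from 18.5, 26.7 and 27.7 CPM to 106, 110 and 97.2 CPM (4.31-fold, adjusted p = 4.2e-06). INPP4B, a phosphatase that removes a product of PI3K, rose from 7.51, 6.11 and 7.0 CPM to 38.5, 37.2 and 37.3 CPM, and SGK1, a kinase related to AKT, from 1.90, 2.004 and 1.62 CPM to 6.16, 7.66 and 6.75 CPM. Among the falls, besides GRB10, were PIK3R3 (319, 374 and 331 CPM, then 175, 183 and 161 CPM), ERBB2 (-0.66) and DEPTOR (-0.69), an inhibitor of mTOR. Thus a growth receptor, a PI3K antagonist and an AKT-like kinase rose, and inhibitors and activators were among the falls.

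Of 37 genes of cytokine and TGF-beta family signalling 6 rose and 3 fell (median -0.05). PMEPA1, which restrains TGF-beta signalling, rose from 50.4, 45.2 and 47.6 CPM to 271, 237 and 244 CPM, and SOCS2, a suppressor of cytokine signalling, from 4.07, 6.99 and 7.73 CPM to 14.9, 20.9 and 19.9 CPM. JAK2 (-0.69), JAK1 (-0.71) and SMAD7 (-0.66) fell, and TGFB2, called higher, rested on 2, 4 and 3 counts against 10, 7 and 12. Of 19 WNT genes 1 rose, FZD5 (1.54), a receptor, and 4 fell: RNF43 (-0.94), APCDD1 (-1.13), NKD1 (-1.14) and LEF1 (-1.64). LEF1 is a transcription factor of the pathway and the other 3 restrain it. Of 13 NOTCH genes HES6 (1.67) and MAML2 (1.67, at 1.13 CPM or less) rose and none fell.

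Luminal and secretory genes rose more often than they fell. Of 27 genes of luminal epithelial identity 10 rose and 3 fell (median 0.33). The keratins KRT8 (469, 444 and 431 CPM, then 1272, 1085 and 1059 CPM) and KRT18 (336, 353 and 373 CPM, then 824, 739 and 768 CPM) rose by similar folds of 2.54 and 2.19, and KRT19 by 6.73. The rises of SLC45A3, a carrier of prostate epithelium (72.2, 63.9 and 73.1 CPM, then 545, 467 and 591 CPM), and of TRPM8, a cold-sensing channel (5.97, 3.96 and 3.43 CPM, then 38.1, 36.9 and 33.6 CPM), were larger. The luminal transcription factors FOXA1 (-0.08 ± 0.06), HOXB13 (-0.36 ± 0.07) and GATA2 (-0.46 ± 0.11) and the adhesion proteins CDH1 (0.02 ± 0.06) and EPCAM (-0.09 ± 0.07) were not called. Of 17 secretory products 9 rose and 3 fell (median 1.11). AZGP1, a secreted zinc-binding glycoprotein, rose from 14.8, 14.8 and 12.6 CPM to 67.3, 74.2 and 54.8 CPM. ACPP, prostatic acid phosphatase, fell from 750, 617 and 582 CPM to 349, 300 and 279 CPM, and PLA2G2A, a secreted phospholipase, from 37.3, 43.5 and 32.7 CPM to 8.68, 7.57 and 6.85 CPM. Products of the prostate thus included a protease group that rose and a phosphatase and a phospholipase that fell.

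Of markers of other cell types some were called, against 11.9% of all genes tested called in either direction. Of 4 basal genes tested KRT14 rose, from 0, 1 and 1 counts to 29, 15 and 19 counts, a ratio of 30.9 (95% interval 8.20 to 261). Of 6 stromal genes ACTA2, smooth muscle actin, rose (1.69, to 8.53 CPM) and COL1A1 (-0.61) and COL3A1 (-2.11, from 1.74 CPM) fell, and of 4 immune and endothelial genes CD68 rose (0.92) and PTPRC (-0.59) and VWF (-0.64) fell. Over the alternative analyses the immune and endothelial list gave 0 to 1 higher and 0 to 2 lower, with 0 lower by limma-voom. Of 9 neuroendocrine genes tested none rose and 3 fell, SOX11 (-0.68), ENO2 (-0.93) and NTS, neurotensin, which measured 26.6, 28.9 and 10.9 CPM and then 6.46, 6.004 and 2.20 CPM.

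Of 33 neural and axon guidance genes 8 fell and 3 rose (median -0.29). LRRN1, a leucine-rich neuronal membrane protein, fell from 149, 137 and 105 CPM to 26.9, 21.9 and 17.6 CPM, and SLITRK3, a synaptic adhesion protein, from 115.6, 159.5 and 117 CPM to 38.4, 33.4 and 33.6 CPM. SEMA6A (-1.52) and SLIT1 (-1.80), both guidance ligands, fell, and CNTNAP2 (1.67), SLITRK6 (1.06) and EFNA5 (0.82) rose. Of 38 adhesion and cytoskeleton genes 7 fell and 5 rose (median -0.13). The laminin chains LAMA1 and LAMC1 rose, the second from 291, 253 and 244 CPM to 846, 791 and 570 CPM, with ITGAV (0.69) and TPM1 (0.65). The matrix genes COL5A2 (-2.43) and COL16A1 (-1.80), the protease MMP16 (280, 304 and 284 CPM, then 112 CPM in all 3 DHT libraries) and TIMP2 (-1.11) fell.

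Of 53 genes of zinc, iron and ion handling 9 rose and 6 fell (median 0.11). SLC41A1, a magnesium carrier, rose from 77.2, 64.5 and 79.4 CPM to 327, 340 and 280 CPM, and KCNMA1, a calcium-activated potassium channel, from 34.2, 29.4 and 28.9 CPM to 152, 117 and 122 CPM. KCNN2, another such channel, rose (1.17), and SLC30A10, a manganese exporter (-2.34), ATP2B1, a calcium pump (-1.15), SLC12A2 (-0.99) and ATP1B1 (-1.88) fell.

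Of 43 genes of interferon response and antigen presentation 8 fell and 2 rose (median -0.16), B2M and SAMD9 (1.11, at 1.16 CPM). NLRC5, the transactivator of MHC class I genes, fell from 6.34, 4.42 and 5.19 CPM to 0.908, 1.66 and 0.80 CPM, opposite in direction to B2M, and IRF1 from 5.88, 5.81 and 6.71 CPM to 1.92, 2.78 and 4.45 CPM. IFIT5 fell (-0.79), and IFI27 was called lower (-2.50) with overlapping groups (0.679, 8.68 and 3.43 CPM, then 0.706, 0.830 and 0.70 CPM) and columns that differed by 4-fold or more. Of 19 circadian clock genes PER1 rose, from 15.5, 14.5 and 13.1 CPM to 28.2, 22.3 and 29.4 CPM, and 5 fell: CIART (-0.83), DBP (-0.72), PER3 (-0.67), CRY2 (-0.62) and NR1D2 (-0.60). The core factors ARNTL and CLOCK measured 0.05 ± 0.28 and -0.17 ± 0.08 (median of the list -0.19).

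Of 46 stress and antioxidant genes 5 rose and 1 fell (median 0.02), among them FKBP5, SELENOP, a selenium carrier (1.49), PRDX4, the peroxidase of the ER (0.83), GSR, glutathione reductase (0.82), and HSPB8 downward (-1.003). Of 39 autophagy and lysosome genes WIPI1 rose (1.25) and the receptor SQSTM1 fell (-0.66), with a median of -0.09. Each was 2.56% of the list, under the shares of all genes tested. Of 18 ETS and RUNX factors SPDEF (1.27), ELK4 (1.07) and RUNX2 (0.88) rose and ETV6 (-0.71) and ELF3 (-0.75) fell.

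TMEFF2 itself measured 68.6, 39.3 and 81.7 CPM with vehicle and 142, 90.1 and 114 CPM with DHT in the sh_TMEFF2 line, so that its libraries overlapped those of the sh_scramble line given above under both treatments. The same treatment of the sh_TMEFF2 line called 506 genes higher (3.28%) and 247 lower (1.6%), and the response differed between the lines for 761 genes (4.94%, interaction term, adjusted p of at most 0.05), or for 465 without the sh_scramble vehicle library of repeat 2 and 489 without the sh_scramble DHT library of repeat 1. Of the 840 genes raised in sh_scramble cells 748 had the same sign in sh_TMEFF2 cells, 212 were called higher there, and the difference passed the test for 346. Of the 995 genes lowered, 891 had the same sign, 162 were called lower and 185 passed the test of the difference, all of them in the direction against the sh_scramble response. Of the genes that passed, 54 of the raised and 34 of the lowered had the opposite sign in sh_TMEFF2 cells. Calls in opposite directions were made for PRKCA, raised in sh_scramble cells, and for KCNH3, LAIR1 and ZPLD1, lowered there, all 4 named for this after their values were seen. The median log2 fold changes of these genes were 0.96 and 0.38 for the raised and -0.97 and -0.41 for the lowered, in sh_scramble and sh_TMEFF2 cells in that order. Because the genes were selected for a large change in sh_scramble cells, their smaller median in the other line is in part set by that choice. KLK3 and KLK2 rose by 2.45 and 2.80 on the log2 scale in sh_TMEFF2 cells and showed no detected difference between the lines (adjusted p = 0.46 and 0.71), with an error of 0.30 and 0.31 on that difference, whereas FKBP5 (0.89), SORD (0.74) and ACSL3 (0.61) rose less than in sh_scramble cells, with adjusted p of 8.4e-05, 8.6e-05 and 8.4e-05 for the difference.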

How the data were processed

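RNA was sequenced from 12 libraries of LNCaP cells, of which the 6 sh_scramble libraries were compared. The authors trimmed reads (Trimmomatic, checked with FastQC) and quantified GRCh38 transcripts with kallisto 0.42.3. They deposited estimated counts per gene symbol in 24 columns, 2 for each library. These counts are labelled lengthScaledTPM, so they carry a scaling by transcript length, and they are not normalized between libraries. Here both columns of a library were summed and rounded. Genes were kept by filterByExpr of edgeR (minimum count 10, minimum total 15), scaled by TMM and fitted over all 12 libraries in 4 groups with edgeR 4.0.16 (R 4.3.3, quasi-likelihood, Benjamini-Hochberg over 15419 genes). Calls required 1.5-fold or more with an adjusted p no higher than 0.05. Standard errors of log2 fold changes were derived as the absolute log2 fold change divided by the square root of the quasi-likelihood F statistic. They are approximate for genes with few counts in a group. CPM are TMM-scaled, and marker sums used plain CPM.

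Same-numbered vehicle and DHT libraries deviated together at r = 0.076 to 0.101 and were not taken as paired. Named are the 15 highest and 15 lowest called fold changes without overlap and with at least 5 CPM, the 10 largest gains and losses in CPM, called members of the lists, and a few fixed genes, leaving out Y-linked ones. A few genes named by this rule are not reported here. The comparison, the members and all 48 lists were chosen with earlier results of these data known. Alternatives were DESeq2 1.42.0, limma-voom (3.58.1), other filters and scaling, a replicate block, each library left out and each column alone. All 3 fits were tested on simulated data. For 299 genes the 2 columns of a control library differed 4-fold or more (32 called). Positions are from GENCODE on GRCh38; whether counting used strand is not given in the sources used here, and 27 of 49 named genes with a position overlap a gene of the other strand.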

Additional observations from a re-analysis of the deposited data

Results flagged for a closer look

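Among the 51 genes named by rule and reported here, the DHT response of 33 differed between the lines by the interaction test (edgeR, adjusted p of at most 0.05, 3 libraries a group); such differences were found for 4.94% of all genes tested. Values are the log2 response of sh_TMEFF2 cells minus that of sh_scramble cells. Of genes raised in sh_scramble cells, the difference was -4.72 for STEAP4, -4.50 for CCDC141, -3.09 for ORM1, -2.98 for HPGD, -2.79 for CHRNA2, -2.66 for TRIM49D2, -2.50 for FKBP5, -2.45 for UGT2B28, -2.06 for LAMA1, -1.98 for ACSL3, -1.73 for ZNF812P, -1.48 for NDRG1, -1.07 for SORD, -0.97 for FASN, -0.77 for HSP90B1 and -0.59 for SCD. Of genes lowered there, it was 5.86 for KCNH3, 2.93 for ABCA1, 2.64 for AMIGO2, 2.62 for VWA2, 2.62 for SI, 2.48 for MAN1A1, 2.16 for PLD1, 2.09 for GLP1R, 1.98 for LRRC31, 1.59 for IL1RN, 1.38 for ATP1B1, 1.33 for FAM198B, 1.30 for GRB10, 1.06 for MANEA, 0.70 for AIDA, 0.60 for PEG3 and 0.50 for FOLH1. All differences ran against the direction of the sh_scramble response, and KCNH3 was called in the opposite direction in sh_TMEFF2 cells. The genes had been selected for their response in sh_scramble cells. KCNH3 is among the genes whose 2 deposited columns disagree, and the part of that in its difference was not tested.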

How the results depend on the processing

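Over 16 alternatives the count of genes called higher stayed within 1.5 times of 840 (603 among genes with a mean above 5 CPM, 714 with library size only, 884 without a filter), and that of genes called lower within 1.5 times of 995 except for 653 with that 5 CPM filter, which removes low genes. Leaving out 1 library gave 772 to 865 higher and 821 to 956 lower. The count of genes whose response differed between the lines was 1205 with DESeq2 and 465 to 638 with 1 library left out, against 761; the cause was not tested. Scaling by library size alone moved the median of all genes to -0.08. No paired design was established: each control library correlated best with its own number, a hint from the data only, and with a replicate block the counts were 869 and 1034 (1120 for the difference between the lines), or 845 and 942 over the 6 sh_scramble libraries alone. Of 807 values of named genes under the alternatives, 793 kept direction and call, 14 lost the call and 0 reversed; the 14 belonged to CALD1, KCNH3, PEG3 and TMEFF2. Of 768 list medians, 51 in 17 lists moved by 0.1 or more. Counts of calls moved by over 1.5 times in several lists, among them lower genes of the clock (2 to 6), interferon (5 to 9), WNT and NOTCH (1 to 7) and neural (5 to 10) lists and higher genes of mitosis and of recombination (2 to 7 each). Lower genes of the fatty acid synthesis list ran from 0 to 4, and those of the immune and endothelial list from 0 to 2. P-values and standard errors rest on the spread among 3 treatments a group, estimated over all 12 libraries with those of the sh_TMEFF2 line included. Depth limits calls for genes near 1 CPM.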
